A study of Mus musculus with 64 samples.

Results

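The enzymes of de novo nucleotide synthesis were followed as 10 genes in mouse pancreatic tumor cells: *Cad*, *Dhodh*, *Umps* and *Ctps* of the pyrimidine route, *Prps1*, which feeds both routes, and *Ppat*, *Gart*, *Paics*, *Impdh1* and *Impdh2* of the purine route. The members are a list of gene symbols that was chosen with earlier results of these data known. All 10 were found, each on 1 row, among the 39017 genes of the count table. RNA of 8 tumor lines was sequenced after growth alone (mono-culture) or after 48 h in direct contact with fibroblasts (coculture), with 4 libraries per line and culture and 64 libraries in all. The lines are 7 clones, which the study derived from a polyclonal culture of KPC mouse pancreatic tumor cells, and the KPC1 line. The labels give a C57BL/6 mixed strain background for every sample. Coculture samples are tumor cells recovered by their GFP through flow sorting, and the labels do not say whether mono-cultures were sorted too. The study divided the clones by their metabolite pools into 2 groups. Clones V, H and E form group 1, clones T, N, M and K form group 2, and KPC1 was given no group. Each line was taken as 1 unit. Nothing in the labels says whether the 4 libraries of a line and culture came from separate cultures, so p-values over libraries measure a spread that may be technical.

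Cells build pyrimidines and purines from small precursors on a ribose phosphate carrier, phosphoribosyl pyrophosphate (PRPP). In the pyrimidine route a trifunctional protein starts a ring that is oxidized at the mitochondrion, joined to PRPP and finally aminated to CTP. In the purine route the ring is assembled stepwise on PRPP up to IMP, the branch point to AMP and GMP. Both routes are known to be active in dividing cells, and pancreatic tumors are known to draw on glucose and glutamine carbon and nitrogen for them.

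Library totals ran from 11178721 to 21333683 counts, and the lowest count of any member in any library was 32, for *Dhodh*. Each of the 64 libraries was closest to another library of its own line and culture. Of 8 ductal epithelial markers, *Krt8* and *Krt18* were high in every line, at medians of 1036 and 1317 CPM in mono-culture, whereas *Epcam* and *Cldn4* were near 0, reaching at most 0.370 and 0.841 CPM in any line. In coculture 3 of the 8 fell (*Krt19*, *Krt8* and *Epcam*), *Sox9* rose and 4 were not called, with a median log2 change of −0.28. Their sum ran from 2438 to 3827 CPM over the lines in mono-culture and from 1857 to 3412 CPM in coculture. CPM are counts scaled to a common library size after TMM normalization. The 15 fibroblast markers summed to between 104 and 259 CPM over the 8 lines in mono-culture and to between 651 and 1333 CPM in coculture, and 13 of the 14 that could be tested rose while *Twist2* fell. Of the 15 fibroblast markers, only *Thy1* and *Lum* had 0 counts in all 8 lines in mono-culture. Their medians in coculture were 12.4 CPM for *Thy1* and 0.0745 CPM for *Lum*, the latter near 0. The mono-culture medians of the other fibroblast markers ran from 0 CPM, for *Postn* and *Mfap5*, to 47.7 CPM, for *Col3a1*. Part of the list was thus expressed in tumor lines grown alone. In bulk RNA, fewer cells of a type and less RNA per cell cannot be told apart. The libraries are numbered up to 64 in the sample titles, which name no sheet or batch. They were divided here after number 43 into 2 inferred sets, called sheets, of 43 and 21 libraries. All 4 mono-culture libraries of K are on the second sheet.

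The members differed widely in level. Levels of different genes were compared per kilobase of exon, as CPM per kb over all exons in GENCODE M21. *Paics*, a bifunctional purine enzyme, was the most abundant, with a median over the 8 line means of 146 CPM per kb in mono-culture. *Impdh2*, the common form of IMP dehydrogenase, which commits IMP to GMP, followed at 47.4 CPM per kb. *Prps1*, *Umps*, *Gart*, *Cad*, *Ctps* and *Ppat* lay close together, between 19.5 and 15.8 CPM per kb. *Impdh1*, the second form of IMP dehydrogenase, was at 8.04 CPM per kb. *Dhodh*, the mitochondrial enzyme that oxidizes dihydroorotate, was far below the others at 0.708 CPM per kb. The order at both ends was the same in coculture, where *Paics* had a median of 141 and *Dhodh* of 0.726 CPM per kb. The deposited RPKM was not used for *Impdh2*, since the length implied by its counts and RPKM ran from 26.3 to 52.7 kb over the libraries against 3.08 kb of exon. For the other 9 members the counts and the RPKM followed each other, with r of at least 0.989 over 64 libraries. That r does not test the length. The implied median was 3.57 kb against 5.14 kb of exon for *Gart*, and 2.54 against 1.99 kb for *Prps1*. By deposited RPKM their mono-culture medians were 25.1 and 15.1, so the order of the members between *Impdh2* and *Impdh1* depended on the length used.

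**Figure D1:**
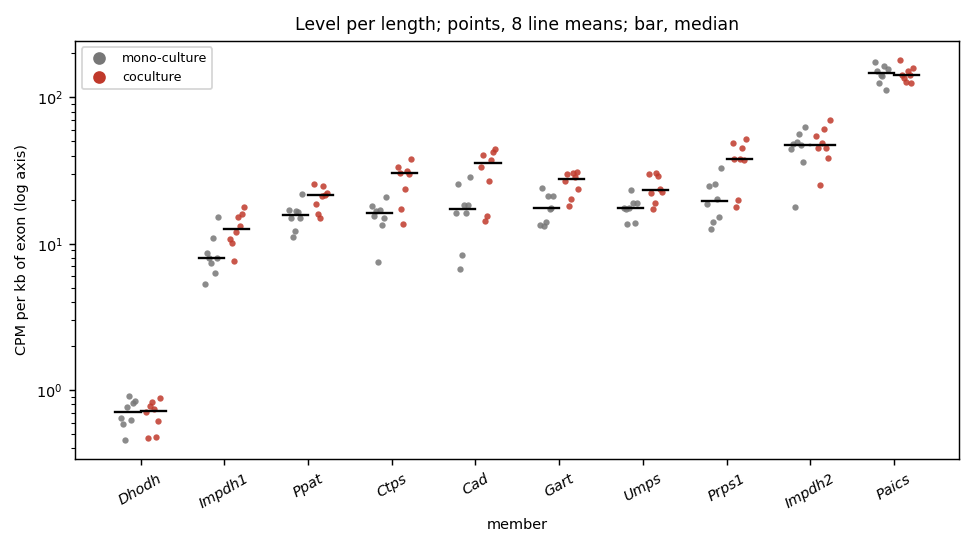
Level of each member per kilobase of exon, on a log axis in CPM per kb, in mono-culture (grey) and coculture (red); points are the means of the 8 lines and bars their medians. *Paics* stands highest, at a median of 146 CPM per kb in mono-culture, and *Dhodh* lowest, at 0.708.

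Over all 8 lines, 7 of the 10 members rose in coculture and 0 fell, where 26.8% of the 16246 genes tested rose and 25.2% fell. edgeR's quasi-likelihood fit was made on counts summed over the 4 libraries of each line and culture, with the line as a covariate and a call at an adjusted p below 0.1. The members' median log2 change was 0.52, and that of all genes tested was 0.006. In order of log2 change, *Cad*, *Prps1*, *Ctps*, *Impdh1*, *Gart*, *Umps* and *Ppat* rose, and *Impdh2*, *Paics* and *Dhodh* were not called. The same 7-of-10 count was found in the first sheet alone, which leaves out K, and without the coculture library with most fibroblast marker signal in each line. That fit could not remove the fibroblast signal. In every line the lowest coculture library had a higher fibroblast marker sum than any mono-culture library of that same line, for example 276 against at most 174 CPM in V. The part that fibroblast RNA had in the response was not tested. All 17 proliferation markers rose as well, with a median log2 change of 0.82, and their sum went from 534 to 1949 CPM over the lines in mono-culture to between 1024 and 2707 CPM in coculture. The ductal epithelial markers had a median log2 change of −0.28. The part of proliferation or of the ductal markers' change in the members' rise was not tested.

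**Figure D2:**
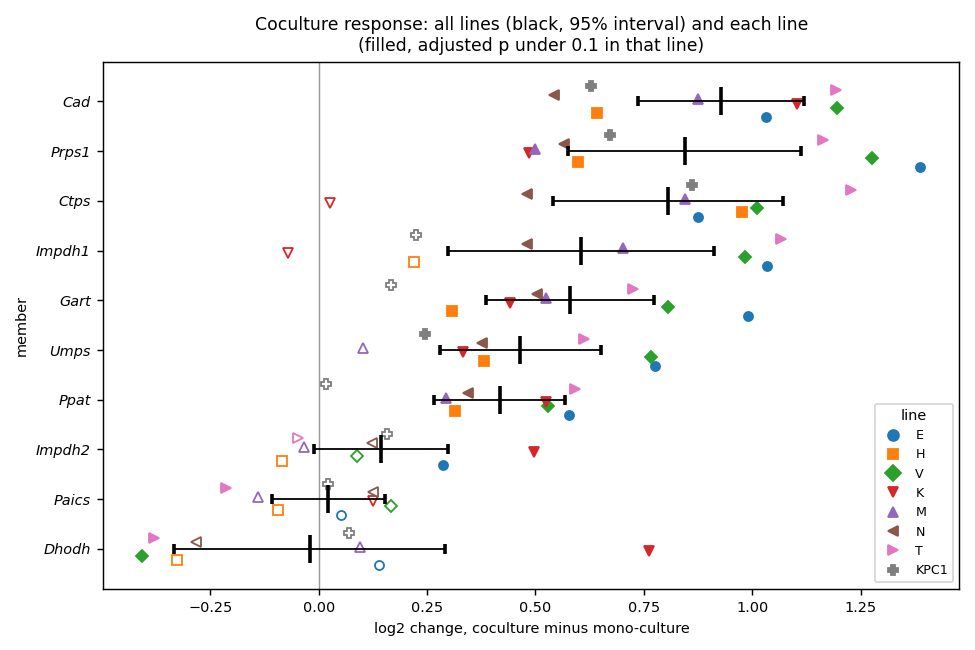
Log2 change of each member in coculture against mono-culture; black bars are the estimates over all 8 lines with their 95% intervals, and symbols the 8 lines, filled where the adjusted p in that line was below 0.1. The 7 members that rose have intervals above 0, with *Cad* at 0.93, and those of *Impdh2*, *Paics* and *Dhodh* include 0.

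The pyrimidine route opens with *Cad* (chr5:31054780-31078479, plus strand, GRCm38), which encodes the trifunctional protein of its first 3 steps. In mono-culture the line means of *Cad* were 134 CPM in E, 210 in H, 151 in V, 54.8 in K, 68.9 in M, 152 in N, 133 in T and 235 in KPC1. In coculture they were 274 CPM in E, 328 in H, 345 in V, 118 in K, 126 in M, 221 in N, 305 in T and 363 in KPC1. Every line mean was thus higher in coculture, and K and M were lowest in both cultures. *Cad* rose by a log2 change of 0.93 ± 0.086 (SE, adjusted p = 1.38e-04), a 1.90-fold change with a 95% interval from 0.74 to 1.12 on the log2 scale. It was called higher in each of the 8 lines taken alone, as were 2.02% of the 14134 genes tested in single lines. The smallest change was in N, 0.54 ± 0.21, and the largest were in V and T, both 1.19 ± 0.21. The difference in response between lines did not pass the test (adjusted p = 0.180, edgeR, 7 degrees of freedom), but it passed where the replicate number entered as a block.

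*Umps* (chr16:33954782-33967038, minus strand), which encodes the bifunctional enzyme that makes UMP, had line means from 47.8 CPM (K) to 81.4 (N) in mono-culture, with a median of 61.3. In coculture its line means ran from 60.1 CPM (K) to 106 (N), with a median of 80.6. The lines at both ends were the same in the 2 cultures. *Umps* rose by 0.46 ± 0.084 on the log2 scale (adjusted p = 0.0027). It was called higher in 7 lines, from 0.25 ± 0.11 in KPC1 to 0.78 ± 0.11 in E, and in M it had a log2 change of 0.10 ± 0.11 that was not called.

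*Ctps* (chr4:120539868-120570276, minus strand), which encodes CTP synthase, had line means from 25.1 CPM (M) to 69.5 (KPC1) in mono-culture and from 45.1 (M) to 126 (KPC1) in coculture. It rose by 0.81 ± 0.12 on the log2 scale (adjusted p = 0.0014) and was called higher in 7 lines, from 0.48 ± 0.19 in N to 1.23 ± 0.19 in T. Clone K was the exception. Its 4 mono-culture libraries were at 69.9, 30.1, 73.6 and 50.2 CPM and its 4 coculture libraries at 67.0, 50.1, 57.5 and 53.3 CPM. These ranges overlapped throughout, and the log2 change in K was 0.02 ± 0.19. Among the mono-cultures, those of K were the most scattered for this gene, with an SD of 20.1 CPM.

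*Dhodh* (chr8:109591343-109608673, minus strand) was not called over the lines, with a log2 change of −0.02 ± 0.14 and a 95% interval from −0.33 to 0.29. Its line means ran from 2.90 CPM (K) to 5.78 (N) in mono-culture and from 2.96 (H) to 5.61 (KPC1) in coculture. The response differed between lines (adjusted p = 3.76e-04, edgeR). In K the 4 mono-culture libraries were at 2.07, 3.17, 3.15 and 3.20 CPM and the 4 coculture libraries at 4.66, 4.53, 5.50 and 4.95 CPM. All 4 coculture libraries of K were above all 4 of its mono-culture libraries, and *Dhodh* rose there by 0.76 ± 0.17. It fell in V, by 0.41 ± 0.17 on the log2 scale, and in T, by 0.38 ± 0.17, and was not called in the other 5 lines. Clone K's mono-culture libraries are all on the second sheet and its coculture libraries are on both, so in K the sheet cannot be fully told apart from the culture.

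*Prps1* (chrX:140456613-140476140, plus strand) encodes a PRPP synthetase, which supplies the ribose phosphate carrier to both routes. In mono-culture its line means were 37.4 CPM in E, 49.8 in H, 30.5 in V, 25.3 in K, 27.9 in M, 50.7 in N, 40.3 in T and 65.3 in KPC1. In coculture they were 97.9 CPM in E, 75.3 in H, 73.9 in V, 35.4 in K, 39.5 in M, 75.1 in N, 90.1 in T and 104 in KPC1. In 7 of the 8 lines all 4 coculture libraries lay above all 4 mono-culture libraries. *Prps1* rose by 0.84 ± 0.12 on the log2 scale (adjusted p = 0.0013) and was called higher in each of the 8 lines. The change differed between lines (adjusted p = 1.59e-05, edgeR). It was 1.39 ± 0.14 in E, 1.28 ± 0.14 in V and 1.16 ± 0.14 in T, and between 0.49 and 0.67 in the other 5 lines. In E the 4 mono-culture libraries held between 33 and 41 CPM and the 4 coculture libraries between 78.5 and 116 CPM.

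The purine route opens with *Ppat* (chr5:76913249-76951578, minus strand), the amidotransferase that commits PRPP to purines. Its line means ran from 49.4 CPM (K) to 97.2 (KPC1) in mono-culture, with a median of 70.1, and from 66.2 (M) to 112 (E) in coculture, with a median of 94.8. *Ppat* rose by 0.42 ± 0.068 on the log2 scale (adjusted p = 0.0020) and was called higher in all 7 clones. KPC1, the line with most *Ppat* in mono-culture, had 97.2 ± 11.9 CPM there and 98.3 ± 18.2 CPM in coculture (SD, n = 4 libraries each), and was not called. *Gart* (chr16:91621186-91646952, minus strand), which encodes a trifunctional enzyme of the same ring, ran from 68.5 CPM (K) to 125 (H) in mono-culture and from 93.0 (K) to 159 (V) in coculture. It rose by 0.58 ± 0.087 (adjusted p = 0.0015) and was also called higher in the 7 clones, from 0.31 ± 0.12 in H to 0.99 ± 0.12 in E. In KPC1 its log2 change was 0.17 ± 0.12.

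*Paics* (chr5:76951307-76967509, plus strand) carries out the steps after *Gart* and is a head-to-head neighbour of *Ppat*. In mono-culture its line means were 547 CPM in E, 474 in H, 352 in V, 393 in K, 443 in M, 438 in N, 515 in T and 493 in KPC1. In coculture they were 567 CPM in E, 444 in H, 395 in V, 429 in K, 402 in M, 478 in N, 444 in T and 500 in KPC1. The libraries of the 2 cultures overlapped in all 8 lines. The log2 change of *Paics* was 0.02 ± 0.059, with a 95% interval from −0.11 to 0.15 that lies below the estimates of the 7 members that rose. In single lines it fell in T, by 0.21 ± 0.10 on the log2 scale, and was not called in the other 7. In M21 the facing ends of *Ppat* and *Paics* share 272 exon bases on opposite strands, 6.15% and 8.67% of their exons, and whether reads were counted by strand is not given in the sources used here.

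The ratio of *Ppat* to *Paics* CPM, a comparison chosen after the values were seen, put the pair side by side within each library. Its line means ran from 0.122 (M) to 0.198 (KPC1) in mono-culture, with a median of 0.142, and from 0.165 (M) to 0.250 (T) in coculture, with a median of 0.197. The ratio was higher in coculture in 7 of 8 lines and slightly lower in KPC1, 0.196 against 0.198. Its mean log2 change was 0.39 ± 0.24 (SD, n = 8 lines). It is given as a description without a p-value, since the pair was chosen after the values were seen.

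The 2 forms of IMP dehydrogenase were compared likewise, and this pair too was chosen after the values were seen. *Impdh1* (chr6:29200434-29216364, minus strand) ran from 17.4 CPM (E) to 50.1 (KPC1) in mono-culture and from 25.2 (K) to 58.4 (KPC1) in coculture. It rose by 0.60 ± 0.14 on the log2 scale (adjusted p = 0.0071) and was called higher in 5 lines, E, V, M, N and T, but not in H, K or KPC1. The lines differed in this response (adjusted p = 6.41e-06, edgeR), from −0.07 ± 0.15 in K to 1.07 ± 0.15 in T.

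*Impdh2* (chr9:108560286-108565584, plus strand) had line means from 54.7 CPM (K) to 192 (KPC1) in mono-culture and from 77.2 (K) to 215 (KPC1) in coculture. It had a log2 change of 0.14 ± 0.070 (adjusted p = 0.120), with an interval from −0.01 to 0.30, and was not called. Taken alone, E and K were called higher, at 0.29 ± 0.12 and 0.50 ± 0.13. In K the 4 mono-culture libraries were at 43.6, 54, 53.8 and 67.6 CPM, below all 4 libraries of V, the next line. Where the 64 libraries entered as replicates, *Impdh2* was called, with a log2 change of 0.12. The ratio of *Impdh1* to *Impdh2* CPM had a median over the lines of 0.207 in mono-culture and 0.274 in coculture. It was higher in coculture in 7 of 8 lines, whereas in K it went from 0.489 ± 0.040 to 0.330 ± 0.038 (SD, n = 4 libraries). The mean log2 change was 0.46 ± 0.54 (SD, n = 8 lines), also a description without a p-value, and its spread over the lines was wider than the mean.

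**Figure D3:**
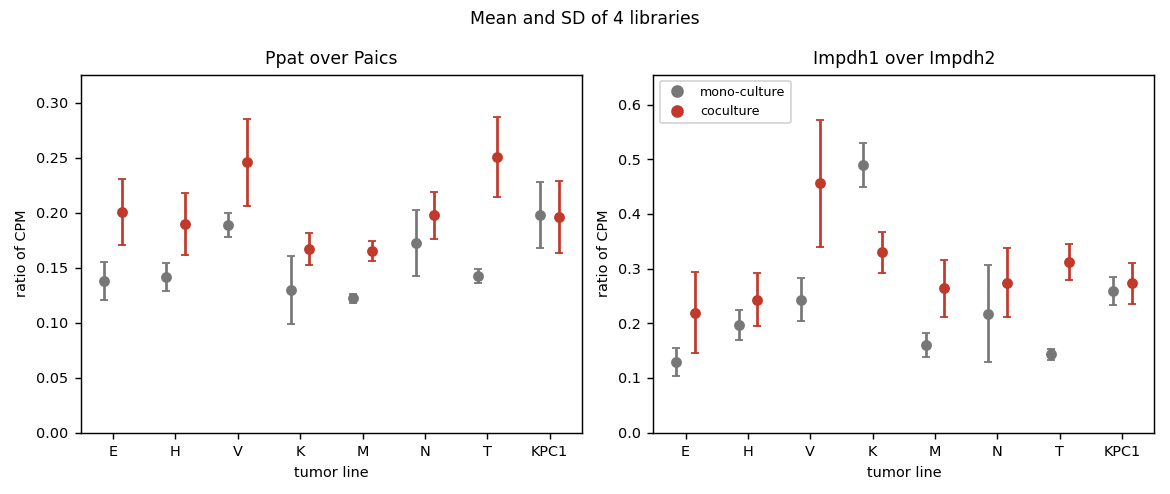
Ratio of CPM of *Ppat* to *Paics* (left) and of *Impdh1* to *Impdh2* (right) in each line; points are means and whiskers the SD of 4 libraries, in mono-culture (grey) and coculture (red). Both ratios are higher in coculture in 7 of 8 lines, with KPC1 the exception on the left and K on the right.

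Counted over lines and members together, 55 of the 80 single-line responses were called, 52 higher and 3 lower, where 23.7% of all single-line responses of all genes were called higher and 21.9% lower. In either direction 45.6% were called. By line, 8 members were called higher in E, 7 each in V, K, N and T, 6 each in H and M, and 4 in KPC1. Of all genes, 32.1% were called higher in E, 30% in V, 12.5% in K, 20% in N, 31.5% in T, 21.4% in H, 21.6% in M and 20.1% in KPC1. Called in either direction were 61.3% of genes in E, 61.5% in V, 20.5% in K, 37.4% in N, 62.2% in T, 44% in H, 38.9% in M and 39.2% in KPC1. K, with the fewest genes called, thus had as many members called higher as V, N and T. The members' median log2 change was largest in E, 0.83, and V, 0.79, followed by T, 0.67, and smallest in KPC1, 0.20. In KPC1 the members that rose were *Cad*, *Umps*, *Ctps* and *Prps1*, and none of the purine ring enzymes was called there. In 44 of the 80 pairs all 4 coculture libraries lay above all 4 mono-culture libraries, against 18.3% over all genes, and in none did they all lie below. The response differed between lines for 8 members, all but *Cad* and *Paics*, where 71.3% of genes differed, and for all 10 where the replicate number entered as a block.

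**Figure D4:**
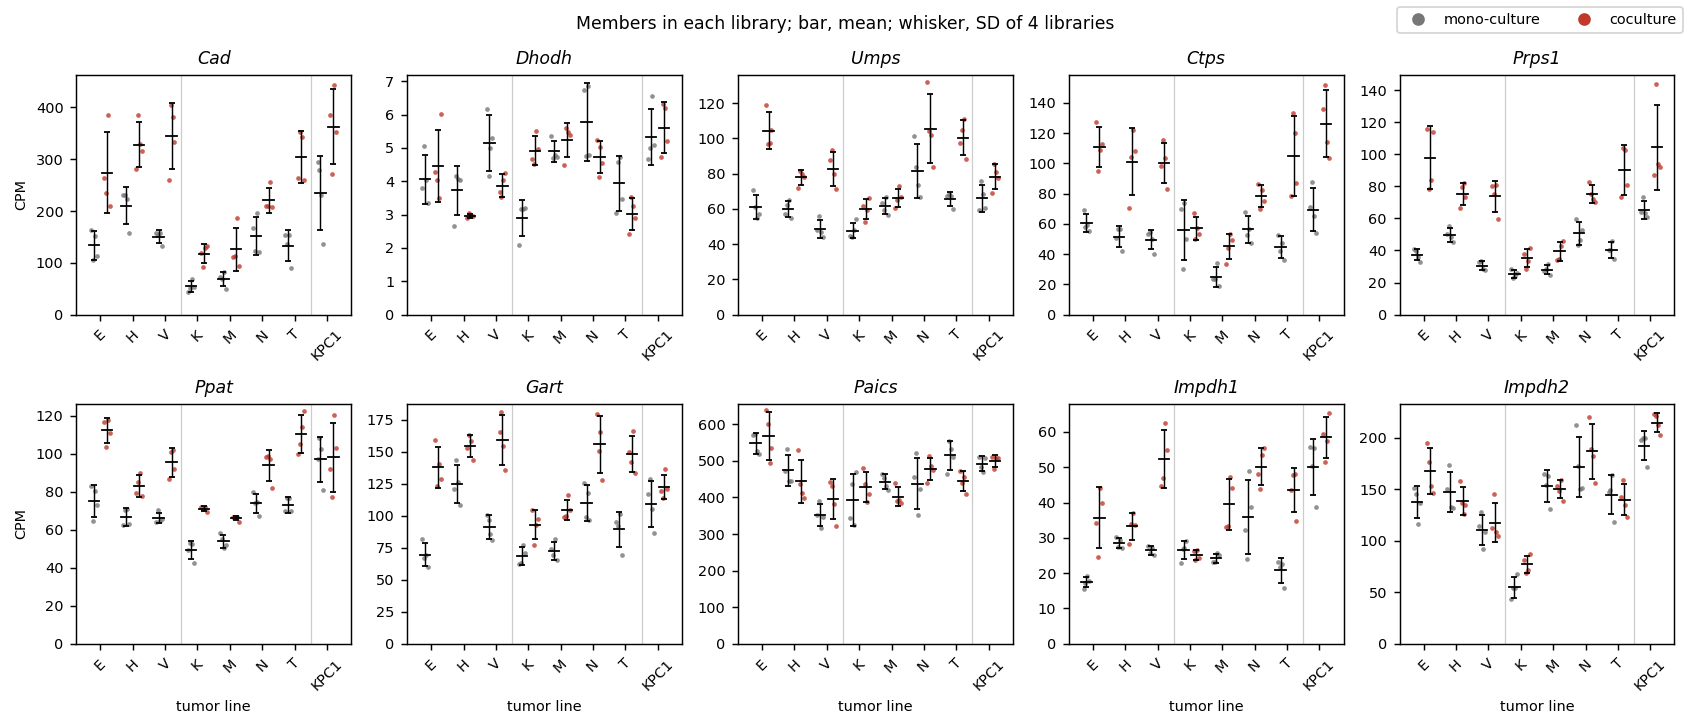
CPM of each member in every library, by line, in mono-culture (grey) and coculture (red); bars are means and whiskers the SD of 4 libraries, and vertical lines part group 1, group 2 and KPC1. *Cad* and *Prps1* are higher in coculture in all 8 lines, and *Paics* libraries of the 2 cultures overlap in all 8.

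All 10 members differed between lines in mono-culture and all 10 did in coculture, shares near the 95.1% and 94.3% of all genes that did (edgeR on libraries, 7 degrees of freedom). In mono-culture K was the lowest line for 7 members, all but *Ctps*, *Paics* and *Impdh1*, where K was lowest for 18.5% of all genes. KPC1 was the highest line for 6 members, *Cad*, *Ctps*, *Ppat*, *Impdh1*, *Impdh2* and *Prps1*, where it was highest for 16% of all genes. In coculture K was lowest for 6 and KPC1 highest for 6 of the 10, against 19.6% and 12.1% of genes. The sum of the 9 members other than *Paics* was 386 ± 35 CPM in K and 890 ± 139 CPM in KPC1 in mono-culture (SD, n = 4 libraries), and 541 ± 51 and 1171 ± 67.2 CPM in coculture. *Cad* had the widest span over lines in mono-culture, 4.29-fold, followed by *Impdh2*, 3.52-fold, and *Paics* the narrowest, 1.56-fold. Most neighbours in the order of lines did not differ beyond their libraries: of 7 neighbouring pairs per member, at most 1 was separated in mono-culture and at most 2 in coculture. Pooled over all genes, 13.5% and 8.75% of neighbouring pairs were separated, which is a share of all pairs and not a highest count per gene. For *Cad* in mono-culture the order was K, M, T, E, V, N, H and KPC1, and only M and T were separated.

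For the metabolic groups of the study, 3 clones were set against 4, each clone counted once. Of the 10 members, 0 differed between groups in mono-culture (edgeR, 0.00% of 14829 genes called, and 5.17% at an unadjusted p below 0.05), and none had an unadjusted p below 0.05. In coculture 0 differed as well, where 0.00679% of 14737 genes were called and 8.57% had an unadjusted p below 0.05. DESeq2 and limma also called 0 members in either culture, although DESeq2 called 117 and 193 genes. The largest difference was in *Cad*, at 165 ± 40.3 CPM in group 1 against 102 ± 47.5 CPM in group 2 in mono-culture (SD, n = 3 and 4 clones). In coculture *Cad* was at 316 ± 37.1 and 192 ± 88.2 CPM. The fitted log2 differences were 0.71 ± 0.38 (adjusted p = 0.888) and 0.72 ± 0.34 (adjusted p = 0.584). The groups overlapped in both cultures for all 10 members, whereas the clone means of the groups did not overlap for 5.29% of genes in mono-culture and 9.11% in coculture. For *Cad* the overlap in coculture came from T at 305 CPM, within the 274 to 345 CPM of group 1.

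The response to coculture was not shown to differ between the groups. Of the 10 members 0 were called for the interaction of group and culture, where 0.00618% of 16172 genes were called and 7.51% had an unadjusted p below 0.05 (edgeR; DESeq2 and limma also called 0). The difference in log2 response, group 1 minus group 2, was largest for *Prps1*, 0.42 ± 0.24, with a 95% interval from −0.14 to 0.98. It was 0.31 ± 0.26 for *Ctps* and 0.02 ± 0.19 for *Cad*, and its lowest value was −0.22 ± 0.33, for *Dhodh*. Clone T of group 2 had responses close to those of E and V, for example 1.19 for *Cad*, 1.16 for *Prps1* and 1.07 for *Impdh1*.

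Other genes of nucleotide metabolism gave a mixed picture. In the fit over all 8 lines, which is used here too, 26.8% of all genes tested rose and 25.2% fell. Of 10 further de novo genes, 5 rose and 0 fell, with a median log2 change of 0.27. The largest were *Pfas*, 0.45, and *Gmps*, 0.43, which encode a purine ring enzyme and GMP synthetase, and *Prps2*, a second PRPP synthetase, had −0.40 ± 0.18 and was not called. Of 8 genes of deoxynucleotide synthesis, 5 rose and 0 fell, with a median of 0.43, and *Dctd*, a dCMP deaminase, rose by 0.61. Of 8 salvage genes, which recycle bases and nucleosides, 5 rose and *Uckl1* fell, by 0.21 on the log2 scale, with a median of 0.20. The salvage genes that rose most were *Upp1*, 1.13, a uridine phosphorylase, and *Aprt*, 0.57, which rebuilds AMP from adenine. In the Myc family, transcription factors known to act on many of these genes, *Myc* rose by 0.86 and *Mycl* by 1.41. *Mycn* fell by 3.43, but from counts near 0. Its median over the lines was 0.186 CPM in mono-culture and 0.0163 CPM in coculture, with 0 counts in 3 and 4 lines. The proliferation markers that rose most were *Bub1*, a spindle checkpoint kinase with a log2 change of 1.34, and *Ccne1*, cyclin E1.

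Over the 16 sums of lines and cultures, which share lines and cultures and are no independent samples, members were described by Pearson's r of log2 CPM. The 45 pairs of members had a median r of 0.59, from −0.20 for *Dhodh* and *Ctps* to 0.94 for *Ppat* and *Prps1*. With the mean of each culture taken away, the median was 0.52. *Prps1* was the member most like *Cad*, *Umps*, *Ctps*, *Ppat* and *Impdh2*. Of all 16246 genes tested, the one most like *Umps* was *Prim2* (r = 0.94), like *Ctps* it was *Ncbp1* (0.97) and like *Dhodh* it was *Tmem179* (0.82). For *Prps1* it was *Phex* (0.98), which is also on the X chromosome. For *Ppat*, *Gart* and *Paics* these were *Noc4l* (0.97), *Mthfd1* (0.96) and *Rplp0* (0.88). For *Impdh1* it was *Trappc4* (0.94), and for *Impdh2* it was *Gm15210* (0.98), annotated as a processed pseudogene.

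Promoter windows of RefSeq on GRCm38.p6, from 250 bases before to 50 after each start, were found for 9 of the 10 members, 11 windows in all. They were searched for CACGTG, the canonical E-box letters, which read the same on both strands and occur in 7.15% of all 32851 windows. Of the members' windows 2 held it, those of *Paics*, with its first base at −203, and *Impdh2*, at −110. The *Paics* site also lies inside the M21 bounds of *Ppat*, though outside the *Ppat* window. The *Impdh2* site lies inside the M21 bounds of *Impdh2* itself. The sites are shown with 10 bases on each side, the motif in capitals, for *Paics* at chr5:76951089-76951114 and *Impdh2* at chr9:108560316-108560341, both on the plus strand. Below them stand the 250 bases before the RefSeq start of *Prps1*, chrX:140456353-140456602 on the plus strand, as the window of a gene that rose in every line and holds no match. A match describes letters and not a bound site, and no match says only that these letters are not in this window.
Paics site: cctcggaaagCACGTGgagggacctg
Impdh2 site: gctcgataagCACGTGgttacccagc
Prps1 upstream: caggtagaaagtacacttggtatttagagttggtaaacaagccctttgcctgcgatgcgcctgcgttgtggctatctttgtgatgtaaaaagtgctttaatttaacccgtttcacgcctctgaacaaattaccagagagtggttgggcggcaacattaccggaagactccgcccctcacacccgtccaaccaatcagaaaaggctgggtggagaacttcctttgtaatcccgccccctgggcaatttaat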

How the data were processed

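The authors deposited whole-number counts for 39017 genes and RPKM values for 49585 genes, for 64 strand-specific, paired-end libraries of polyadenylated RNA. The submitters' processing notes name featureCounts, edgeR and the mm10 build; the aligner and strand setting are not given in the sources used here. The deposited RPKM are normalized by gene length and library total and were used for alternatives and a length check only. Levels per length were planned on RPKM and were taken as CPM per kb of exon instead, because the RPKM of *Impdh2* did not follow its counts.

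Counts were summed over the 4 libraries of each line and culture, since the line was what was cocultured, or kept as libraries to compare lines. Genes were filtered with filterByExpr, normalized by TMM and tested with edgeR 4.0.16 (quasi-likelihood), with Benjamini-Hochberg adjustment over all genes tested and a threshold of 0.1. A standard error is the log2 change divided by the root of its F statistic. CPM use TMM-normalized library sizes, and log2 CPM a prior count of 0.5. In simulated data 200 genes were changed. The fit on sums recovered 26% of those changed by 0.5 on the log2 scale, so such changes were often missed in that setting. It recovered 73.5% of those changed by 1, and 10.3% and 7.55% of its calls were false. The fit of 4 against 4 libraries, simulated for E, recovered 38% and 77.5%, with 10.6% and 11.9% of calls false. In the data far more genes were called, 52.0% in the coculture response, so these shares need not hold there. In GENCODE M21, of the same build, 37607 gene IDs were found. A symbol on more than 1 row, *Uck2*, was taken from the row that M21 gives that name. Libraries of a line and culture differed beyond counting noise (chi-square per gene 4.46 to 65.5 over 96 pairs), so none was counted as a duplicate. Intervals and errors cover these libraries and lines. Alternatives used RLE and upper quartile normalization, no filter, a threshold of 0.05, DESeq2 1.42.0, limma 3.58.1 on log2(RPKM + 1) and log2(RPKM + 0.1), 1 sheet, a sheet covariate, 64 libraries, and fits without each replicate number or line.

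Members, gene lists, markers and tests were chosen with earlier results of these data known. All members are named, with the 2 genes of each other list, markers apart, that changed most in each direction among those called, and the gene of highest r with each member; a few genes under this rule are not reported here. The fit without fibroblast-rich libraries and the 2 ratios were added after values were seen. Metabolic groups are the paper's. Sheets were inferred from sample numbers.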

Additional observations from a re-analysis of the deposited data

Results flagged for a closer look

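The response to coculture differed between lines, by edgeR's test of line and culture with 7 degrees of freedom, for *Impdh1* (adjusted p = 6.41e-06), *Prps1* (1.59e-05), *Dhodh* (3.76e-04), *Gart* (4.99e-04), *Umps* (7.70e-04), *Ppat* (0.00138), *Ctps* (0.00406) and *Impdh2* (0.0474). Of all 14134 genes tested, 71.3% differed as well, so such a difference is not particular to the members. Over the 8 lines the log2 change of *Impdh1* ran from −0.07 to 1.07, that of *Ctps* from 0.02 to 1.23, that of *Gart* from 0.17 to 0.99 and that of *Ppat* from 0.02 to 0.59. Among the 8 responses of *Dhodh*, that of K, 0.76, stood apart from the others, which lay between −0.41 and 0.14.

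Single libraries stood apart from the other 3 of their line and culture by Dixon's test in 13 of 160 groups. With the 10 sets of 8 responses, 14 of 170 groups were past the critical value, and chance alone gives about 1 in 20, or 8.5. In mono-culture these libraries were *Cad* in H replicate 4 (157 CPM, the others 223 to 232) and in V replicate 4 (132, the others 155 to 158), and *Dhodh* in H replicate 1 (2.64, the others 4.03 to 4.16), K replicate 1 (2.07, the others 3.15 to 3.20) and M replicate 1 (5.36, the others 4.69 to 4.79). They also included *Umps* in T replicate 4 (59.9 CPM, the others 67.2 to 68.3) and *Impdh2* in KPC1 replicate 4 (172, the others 198 to 200.2). In coculture they were *Cad* in N replicate 3 (256 CPM, the others 207 to 210), *Ppat* in M replicate 4 (64.3, the others 66.8 to 67.0) and N replicate 4 (81.8, the others 97.1 to 98.7), and *Paics* in M replicate 1 (440.3, the others 384 to 393) and KPC1 replicate 2 (477, the others 507 to 510). The last was *Prps1* in KPC1 replicate 2, at 144 CPM against 87.1 to 93.7 in the others.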

How the results depend on the processing

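The count of 7 members called in coculture was the same under the other normalizations, no filter, a threshold of 0.05, DESeq2, limma, 1 sheet and without each line or replicate number, and it was 8 with 64 libraries, where *Impdh2* was called. The counts of 0 members between groups were 0 under each alternative run. Values near 0 that had not been called changed sign. With upper quartile normalization, *Paics* had a log2 change of −0.012 over the lines and −0.016 in KPC1, and *Ppat* −0.019 in KPC1. Without 1 line or replicate number, the log2 change over the lines ran from −0.14 to 0.021 for *Dhodh* and from −0.031 to 0.045 for *Paics*. In single lines without 1 replicate number, *Dhodh* ran from −0.12 to 0.28 in E and from −0.017 to 0.13 in KPC1, *Ctps* from −0.13 to 0.18 in K, and *Ppat* from −0.088 to 0.17 in KPC1. *Paics* ran from −0.010 to 0.075 in E and from −0.0081 to 0.034 in KPC1. *Impdh2* ran from −0.13 to 0.022 in H and from −0.091 to 0.031 in T. With the sheet as a covariate, *Ctps* in K was at −0.000357. Without 1 replicate number, 48 to 52 single-line responses were called and 6 to 8 members differed in response between lines. Genes called between groups depended on tool and clone: DESeq2 called 117 in mono-culture, 193 in coculture and 191 for the difference in response, and the fits without E called 217, 19 and 48, against 0, 1 and 1. The other alternatives called at most 4 genes. The cause was not tested.

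The replicate numbers were not taken to pair the samples, since the labels do not say what a number marks and only 24 of 32 same-numbered pairs had deviations correlated above 0.1, with a median r of 0.24. That 22 of 32 were closest to their own number is a hint of pairing from the data and not from the design. With the number as a replicate block, 8 members were called in the coculture response, 56 single-line responses and 10 members for a difference between lines, against 8 without the block on the same libraries, 55 and 8, so that *Cad* and *Paics* gained the call of a difference between lines. The block did not enter the tests on sums. *Dhodh*, with counts down to 32 in a library, is the member whose precision depth limits most.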
